A study of Mus musculus with 11 samples.

Results

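The cytosolic ribosome is built from ribosomal RNA and a set of ribosomal proteins, each encoded in the mouse mainly by 1 active gene among many silent or weakly transcribed copies. The genes described here are the protein-coding rows of the deposited count table whose symbol is Rpl or Rps followed by a digit, or Rpsa, Rplp0, Rplp1 or Rplp2, without the S6 kinases, the named pseudogenes and Rps19bp1. The rule found 85 of 54532 rows. Of these, 81 passed the filter on low counts, 48 of the large and 33 of the small subunit, among 14113 genes that passed it in all. The other 4 were Rpl24, Rpl3l, Rpl10l and Rpl39l.

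The libraries are poly(A)-selected RNA of whole pancreas from C57BL/6JRj mice. Untreated mice of 7 weeks gave 3 libraries (young untreated, mice 1 to 3) and untreated mice of 18 months gave 2 (aged untreated, mice 2 and 3). Mice of both ages that received caerulein gave 3 libraries each (young caerulein and aged caerulein, mice 1 to 3). Caerulein mimics cholecystokinin, the gut hormone of acinar secretion, and in excess it injures the gland. Caerulein was injected into the abdomen at hourly intervals, 4 times, at 125 µg per kg, and these libraries carry the time label 5H. Whole tissue was used, so fewer cells of a type and less RNA per cell cannot be told apart.

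Ribosomal protein mRNAs in vertebrates carry a 5′-terminal oligopyrimidine (5′-TOP) tract, a C at the start followed by a run of C and T, through which their translation is controlled together by mTOR and LARP1. The acinar cell of the pancreas is among the most active protein-making cells of the body. An mRNA level is a measure of neither the translation of that mRNA nor the number of ribosomes.

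Library totals ran from 14223190 to 26537091 counts. The 15 genes of the acinar marker list, mostly digestive enzymes, took 52.1% to 57.9% of the counts in untreated libraries and 40.3% to 42.9% after caerulein. The result for every other gene therefore depends on the scaling, and 3 scalings are given: TMM, which equalises the bulk of genes (its factors ran from 0.696 to 1.29), library totals, and the summed ribosomal protein counts, which shows change relative to the family. Library totals moved the median of all genes from -0.06 to 0.43 (log2) in the young caerulein comparison and from 0.07 to 0.69 in the aged one. Young untreated mouse 2 stood apart. Its TMM factor was 1.13, against 0.696 to 0.798 in the other untreated libraries and 1.05 to 1.29 after caerulein. In CPM of library totals (counts per 1000000), its summed B and plasma cell markers were at 612 (at most 54.9 elsewhere), its T and NK cell markers 144 (at most 1.77), its adipocyte markers 629 (at most 38.5) and its myeloid markers 297 (at most 101), and all 12 B and plasma cell and all 12 T and NK cell genes were detected in it. Its erythroid (153, at most 31.6 elsewhere), endothelial (131, at most 56.8) and fibroblast sums (317, at most 204) were also the highest. Its ductal sum was the lowest (50.8, at least 67.4 elsewhere), and its islet and acinar sums lay within the range of the other libraries. Counts are given with and without this mouse, and the part of these cells in the results was not tested.

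The family took a larger share of the library after caerulein. Ribosomal protein genes held 1.19%, 1.59% and 1.26% of all counts in young untreated mice 1, 2 and 3, and 1.53% and 1.36% in aged untreated mice 2 and 3. They held 2.45%, 2.48% and 2.35% in young caerulein mice, and 2.26%, 2.62% and 2.38% in aged caerulein mice. Every caerulein library lay above every untreated library, and the ages overlapped. Relative to the TMM-scaled library size the shares were 1.58%, 1.40% and 1.69% in young untreated, 1.91% and 1.95% in aged untreated, 1.90%, 2.01% and 1.98% in young caerulein, and 2.15%, 2.35% and 1.88% in aged caerulein mice. On that scale young untreated mice were lowest, and aged mice with and without caerulein overlapped. With the acinar list set aside, the share was 2.68% to 3.31%, 3.22% to 3.43%, 4.05% to 4.22% and 3.96% to 4.49% in the same order of groups. The ratio of large to small subunit counts was 1.41 in young untreated mouse 2 and 1.5 to 1.56 in the other libraries.

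**Figure D1:**
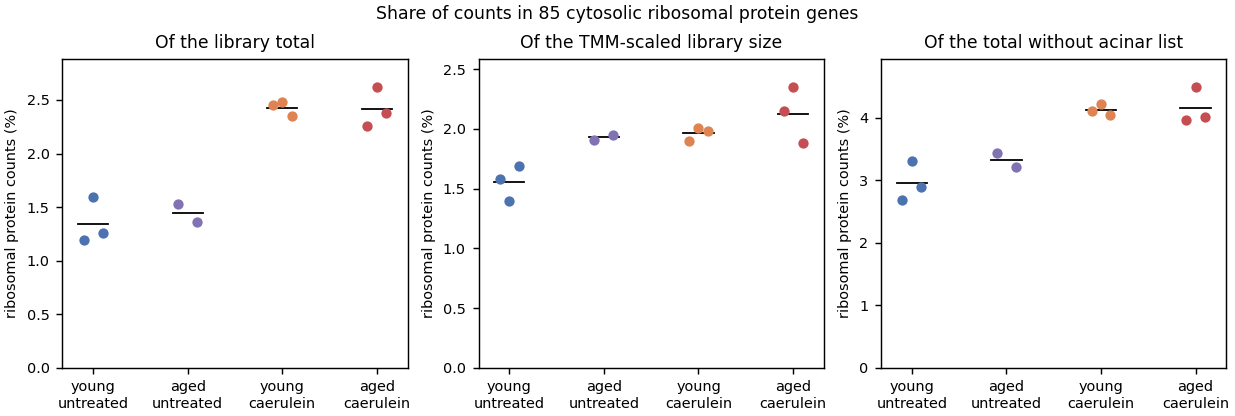
Percent of counts in the 85 ribosomal protein genes, of the library total, of the TMM-scaled library size and of the total without the acinar list; each point is a library and the line is the group mean. Caerulein libraries sit at 2.26% to 2.62% of the total against 1.19% to 1.59% in untreated ones, while on the TMM scale the aged groups overlap.

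Levels between genes were compared per length, on the authors' FPKM. The highest were Rplp1, an acidic protein of the ribosomal stalk that recruits translation factors, at 814 to 1290 FPKM over the 11 libraries, Rpl41, the smallest ribosomal protein, at 396 to 677, and Rplp0, the scaffold of the stalk, at 337 to 547. The lowest tested members were Rps10 at 0.228 to 0.768 FPKM, Rpl36al at 0.0376 to 1.26 and Rpl13a at 2.74 to 4.27. Rps10, Rpl13a and the untested Rpl24 (4 to 16 counts a library) encode core proteins of every ribosome.

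The low level of Rps10 was accompanied by counts in its named copies. Over all libraries Rps10 held 269 counts and its 4 rows named as Rps10 pseudogenes held 13739, or 98.1% of the sum. The longest run of bases shared by an Rps10 transcript and an Rps10-ps2 transcript in GENCODE M21 was 392. With its pseudogene rows added, Rps10 was at 56.7, 54.4 and 54.7 TMM-scaled CPM in young untreated, 56.6 and 69.4 in aged untreated, 56.1, 67.3 and 55.9 in young caerulein and 72.7, 77 and 65.6 in aged caerulein mice. Rpl17, on the large subunit at the exit of the peptide tunnel, likewise held 85.1% of its summed counts in pseudogene rows, whereas Rpl21 held 38.5% and Rpl13a 0.0567%. The 298 rows named as pseudogenes of Rpl or Rps genes together held 4.11% to 4.58% as many counts as the members. Copies under other names were not counted. With the named rows added, Rpl13a stayed at 5.79 to 9.28 TMM-scaled CPM. The part in named rows was 27.5% for Rpl7a, 25.3% for Rps12 and 22.5% for Rpl14. Values of these genes and of Rps10, Rpl17 and Rpl21 are uncertain for this reason.

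Sequences around the annotated start are shown for Rps6, Rpl5 and the paralogues described below, so that the starts of these mRNAs can be compared. RefSeq (GRCm38.p6) lists promoters for 65 of the 85 members, 77 in all. Each line runs 5′ to 3′ along the gene's strand, from 30 bases before the annotated start base to 29 after it. Capitals mark a tract of C followed by at least 5 bases of C or T whose C lies within 20 bases of the start; where no capitals appear, none was found. Rps6, Rps27 and Rps27rt have it on the start base itself.
Rps6 (chr4:86857338-86857397, minus strand): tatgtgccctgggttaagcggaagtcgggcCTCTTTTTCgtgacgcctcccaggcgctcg
Rpl5 (chr5:107900498-107900557, plus strand): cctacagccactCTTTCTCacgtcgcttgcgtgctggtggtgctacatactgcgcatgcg
Rpl22l1 (chr3:28805478-28805537, plus strand): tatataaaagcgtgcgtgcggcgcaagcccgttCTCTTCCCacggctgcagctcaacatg
Rpl22, first listed start (chr4:152324406-152324465, plus strand): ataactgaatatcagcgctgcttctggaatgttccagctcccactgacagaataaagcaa
Rpl22, second listed start (chr4:152325696-152325755, plus strand): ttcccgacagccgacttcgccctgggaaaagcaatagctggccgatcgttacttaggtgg
Rps27 (chr3:90213619-90213678, minus strand): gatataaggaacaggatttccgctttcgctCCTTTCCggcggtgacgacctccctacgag
Rps27rt (chr9:114982710-114982769, minus strand): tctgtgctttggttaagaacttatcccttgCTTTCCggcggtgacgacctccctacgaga
Rps27l, first listed start (chr9:66946056-66946115, plus strand): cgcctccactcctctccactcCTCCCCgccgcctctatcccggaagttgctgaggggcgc
Rps27l, second listed start (chr9:66946383-66946442, plus strand): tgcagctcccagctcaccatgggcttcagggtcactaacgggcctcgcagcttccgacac
Rpl7l1 (chr17:46782627-46782686, minus strand): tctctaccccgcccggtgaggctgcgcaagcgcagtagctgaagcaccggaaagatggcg

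In all, 5 motif searches were made over these promoters, with the members' results already known, and each is given here. A tract near the start, as capitalised above and read on the gene's strand only, was in 59.7% of the 77 member promoters, 32.5% of all 32851 promoters and 42.7% of the 75 promoters of mitochondrial ribosomal proteins. A C on the start base followed by at least 4 bases of C or T was in 18.2%, 2.51% and 0%, and with at least 5 such bases in 15.6%, 1.7% and 0%. CTTTT on the gene's strand within 20 bases of the start was in 9.09%, 4.41% and 2.67%. CTTCCG on either strand anywhere in the 300 bases, which can overlap a tract, was in 59.7%, 16.9% and 53.3%. The annotated start is a single base chosen by RefSeq, so a tract that begins a few bases away is missed by the searches at the start base.

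In young mice, caerulein was accompanied by higher ribosomal protein mRNAs on the TMM scale. Of 81 tested members 39 rose, 25 of 48 in the large and 14 of 33 in the small subunit, and 42 did not pass the test; 27.5% of all tested genes rose. None fell, whereas 24.7% of all genes did, and none was lower even at an unadjusted p below 0.05. DESeq2 also called none lower (25.3% of all genes) and 37 higher (26%). The median log2 change of the members was 0.36, against -0.06 over all genes. Without young untreated mouse 2, 30 rose (30.8% of all genes) and 1 fell (26.8%), with medians of 0.25 and 0.01, and 28 calls were shared with the full set. In 61 members every caerulein library lay above every untreated one (30.7% of all genes), and in 0 every one lay below (26.5%). On library totals 77 rose (37.7% of all genes) and none fell (8.99% of all genes), none even at an unadjusted p below 0.05, with medians of 0.87 for the members and 0.43 for all genes; without that mouse, 79 rose (52.9% of all genes), with medians of 1.03 and 0.79. The authors' deposited table called 31 members higher and 0 lower at an adjusted p below 0.05 (shares of all genes in that table not given here).

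Rps6, whose protein is the classic substrate of the S6 kinases, was at 312, 270 and 325 TMM-scaled CPM in young untreated mice 1, 2 and 3 and at 437, 440 and 440 in young caerulein mice. It was at 417 and 406 in aged untreated and at 511, 575 and 438 in aged caerulein mice. Untreated young mice were lowest and no groups compared at 1 age overlapped. The log2 change was 0.54 ± 0.13 (SE) in young mice (edgeR quasi-likelihood test, adjusted p = 0.00563) and 0.30 ± 0.15 in aged mice, which did not pass (adjusted p = 0.115). Of library totals it was at 235, 305 and 242 CPM, then 564, 544 and 523, in young mice, and at 333 and 283, then 538, 641 and 555, in aged mice. These gave log2 changes of 1.06 (adjusted p = 7.29e-05) and 0.91 (adjusted p = 0.000586).

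The smallest p among the members in young mice was that of Rpl22l1. Its product is a paralogue of Rpl22 that can take its place in the large subunit, and in mouse Rpl22 is known to repress Rpl22l1. Rpl22l1 was at 21.9, 18.5 and 24.6 TMM-scaled CPM in young untreated, 26.5 and 24.2 in aged untreated, 35.9, 39.7 and 33.2 in young caerulein and 35.2, 36 and 30.9 in aged caerulein mice. Every caerulein library exceeded every untreated library at both ages. It rose by 0.74 ± 0.13 in young (adjusted p = 0.000619) and by 0.43 ± 0.15 in aged mice (adjusted p = 0.0307, edgeR). Rpl22 was at 61.9, 66.3 and 66.2 TMM-scaled CPM in young untreated, 81 and 73.4 in aged untreated, 77, 83.6 and 83.1 in young caerulein and 78.5, 90.9 and 68 in aged caerulein mice. It rose by 0.33 ± 0.12 in young mice (adjusted p = 0.0419), and lost the call both with the mouse number as a block (adjusted p = 0.0539) and when young untreated mouse 2 was left out (0.29, adjusted p = 0.0502). On the TMM scale its aged groups overlapped (0.04 ± 0.14, edgeR, adjusted p = 0.852). Of library totals, young mice had 16.5 to 21 CPM of Rpl22l1 untreated and 39.4 to 49.1 after caerulein. On that scale Rpl22 in young mice was at 46.6 to 74.9 CPM untreated and 98.7 to 103 after caerulein. The aged groups of both genes on library totals are not given here, so the overlap of Rpl22 in aged mice stands for the TMM scale only. Whether the paralogues differed in their change was not tested.

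Rpl21, a structural protein of the large subunit, was also among the members of smallest p in young mice. It was at 60, 52.1 and 68.2 TMM-scaled CPM untreated and 105, 94.7 and 92.5 after caerulein, a log2 change of 0.70 ± 0.14 (edgeR, adjusted p = 0.00157). The groups did not overlap. In aged mice Rpl21 was at 104 and 103 untreated and 123, 104 and 92.9 after caerulein. On the TMM scale the aged groups overlapped and the change did not pass the test (0.04 ± 0.15, edgeR, adjusted p = 0.867). With its pseudogene rows added, Rpl21 changed by 0.58 ± 0.13 in young mice (adjusted p = 0.0034) and by 0.09 ± 0.15 in aged mice (adjusted p = 0.636). On library totals Rpl21 was at 45.2 to 58.9 CPM in young untreated, 110 to 136 in young caerulein and 72 to 83.3 in aged untreated mice. Its aged caerulein values of library totals are not given here, so the overlap in aged mice stands for the TMM scale only. On that scale 73 of 81 members rose in aged mice (38.6% of all genes).

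Members with roles outside the ribosome or at its active sites fell on both sides of the threshold in young mice on the TMM scale. The values below are on that scale, whereas on library totals 77 of 81 members rose (37.7% of all genes). Of Rpl5 and Rpl11, which bind 5S ribosomal RNA and, when free, inhibit Mdm2, Rpl5 rose by 0.57 ± 0.14 (edgeR, adjusted p = 0.00549), from 279, 234 and 289 to 370, 400 and 421 TMM-scaled CPM. Rpl11 changed by 0.28 ± 0.13 (adjusted p = 0.0865), from 203, 169 and 206 to 217, 254 and 233, without overlap of the groups. The 3 stalk proteins did not pass, with log2 changes of 0.25 for Rplp0, 0.18 for Rplp1 and 0.20 for Rplp2. Nor did Rpsa, which is also described as a laminin receptor (0.20 ± 0.12, adjusted p = 0.2), or Rps27a, made as a fusion with ubiquitin (0.40 ± 0.16, adjusted p = 0.0545). Rpl10 (0.50), Rpl36a (0.40), Rps4x (0.37) and Rpl13a (0.53) rose, and of these the first 3 lost the call without young untreated mouse 2, with log2 changes of 0.27, 0.30 and 0.27 (adjusted p = 0.0639, 0.0868 and 0.0837). With the mouse number as a block they also lost it (adjusted p = 0.0592, 0.0637 and 0.0728). Rpl3 (0.15), Rpl7 (0.25), Rpl39 (0.05), Rpl41 (-0.01) and Rps10 (0.43) did not pass. With its pseudogene rows added the change of Rps10 was 0.12 (adjusted p = 0.439).

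**Figure D2:**
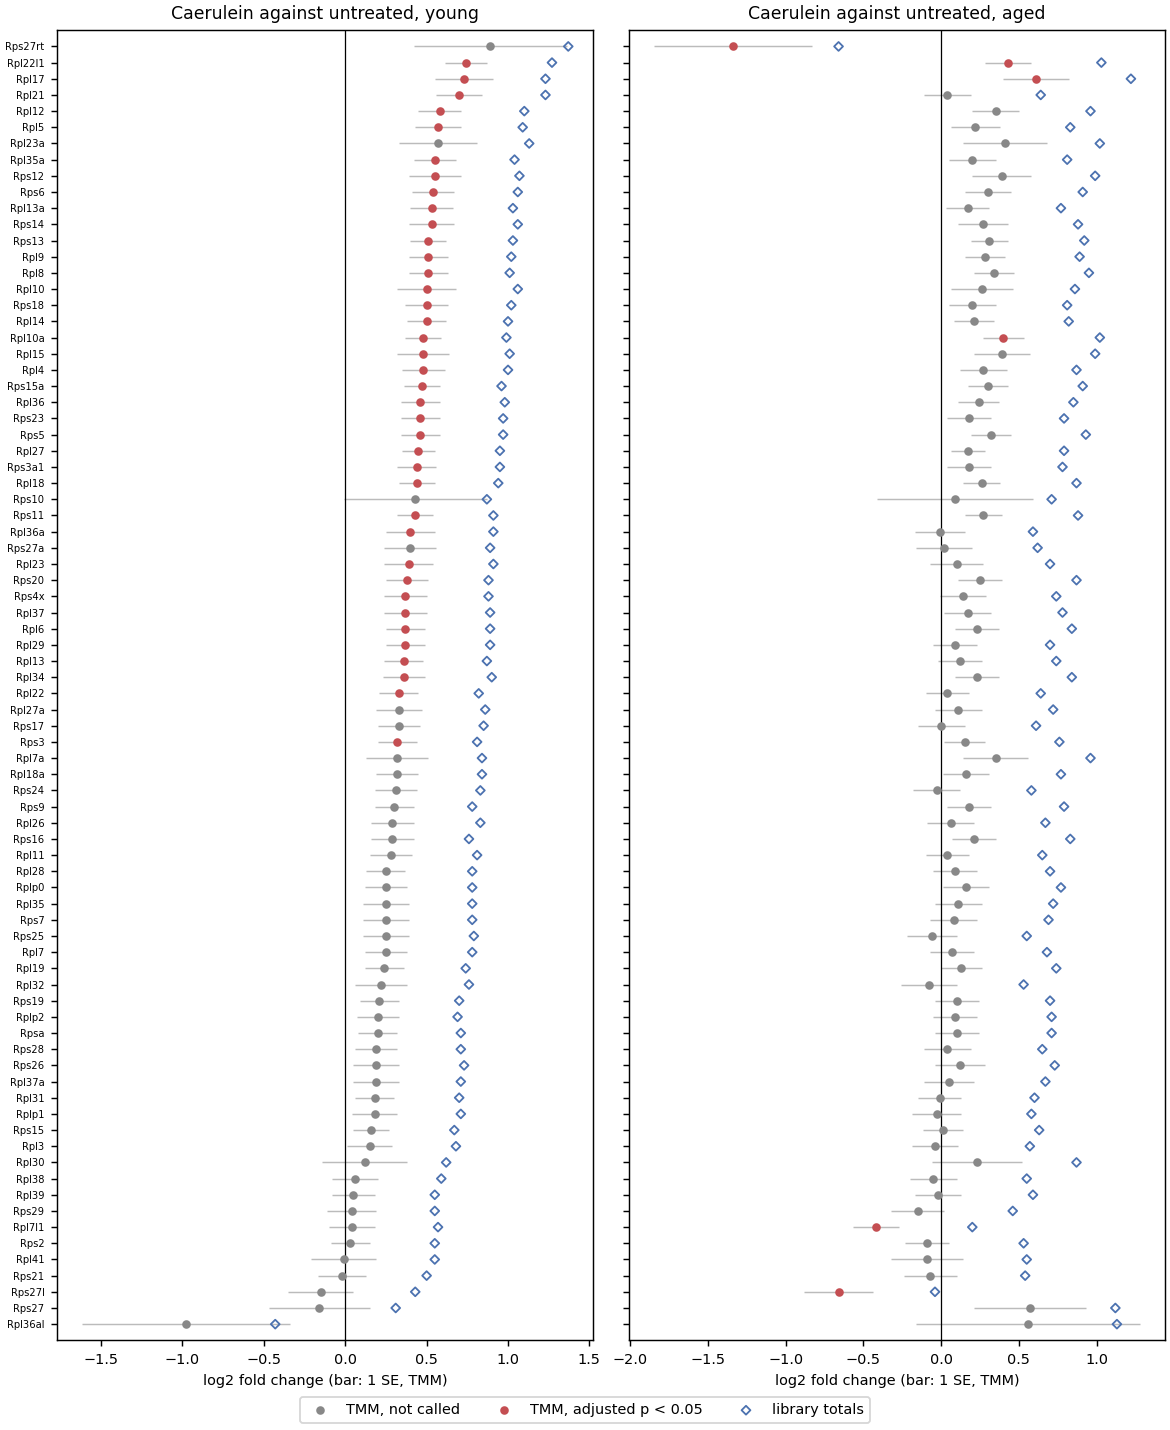
Log2 fold change after caerulein for 80 of the 81 tested members in young (left) and aged (right) mice, ordered by the young value; dots with 1 SE are TMM estimates, red where the adjusted p is below 0.05, and open diamonds are estimates on library totals. One tested member is not drawn. In young mice 38 dots are red and all lie to the right of 0; in aged mice 3 are red on each side.

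In aged mice few members passed on the TMM scale. Of 81, 3 rose (Rpl10a, Rpl17 and Rpl22l1) and 3 fell (Rpl7l1, Rps27l and Rps27rt), where 27.0% of all genes rose and 21.2% fell. The median was 0.15 for the members and 0.07 for all genes. The groups did not overlap in 26 members with caerulein above (37.8% of all genes) and in 2 with caerulein below (33.4%). These counts depended on single libraries: the number that rose was 9 without aged caerulein mouse 3, 6 without young untreated mouse 2, 1 without aged untreated mouse 2 or aged caerulein mouse 1, and 0 without aged untreated mouse 3 or aged caerulein mouse 2. The number that fell was 1 without aged untreated mouse 2 or young caerulein mouse 2, and 0 without aged untreated mouse 3 or any 1 of the aged caerulein mice. Over all fits that left out 1 library, 18.9% to 30.7% of all genes rose and 12.6% to 27.6% fell. On library totals 73 rose (38.6% of all genes) and none fell (7.61% of all genes), none even at an unadjusted p below 0.05, with medians of 0.76 for the members and 0.69 for all genes. The authors' deposited table called 9 higher and 2 lower (shares of all genes in that table not given here).

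Rpl10a, part of the mobile stalk near the exit site of tRNA, was at 202 and 224 TMM-scaled CPM in aged untreated and 283, 299 and 261 in aged caerulein mice (0.40 ± 0.13, edgeR, adjusted p = 0.0211). Rpl17 was at 38.7 and 34.6, then 44.5, 73.1 and 50.6 (0.61 ± 0.21, adjusted p = 0.0286). Neither overlapped between groups. With pseudogene rows added, the change of Rpl17 was 0.35 ± 0.15 and no longer passed (adjusted p = 0.0773).

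Rps27l, a paralogue of Rps27 known as a p53 target, was at 111 and 110 TMM-scaled CPM in aged untreated and 71.2, 72.7 and 67.1 in aged caerulein mice. In young mice it was at 94.9, 50.7 and 96.6 untreated, the low value being mouse 2, and at 68.9, 77.4 and 72.1 after caerulein. The aged groups did not overlap and the young groups overlapped through mouse 2. It fell by 0.66 on the log2 scale in aged mice (SE 0.22, edgeR, adjusted p = 0.0305) and changed by -0.15 ± 0.20 in young mice (adjusted p = 0.561). Without young untreated mouse 2 the young change was -0.45 ± 0.09 and passed (adjusted p = 0.000764). On library totals the changes were 0.43 in young mice (adjusted p = 0.0185) and -0.04 in aged mice (adjusted p = 0.833), so the direction in young mice flips with the scaling. Relative to the family Rps27l was lower at both ages, by -0.46 (adjusted p = 0.037) and -0.79 (adjusted p = 0.00496).

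Rpl7l1, a paralogue of Rpl7, was at 31.6 and 33.7 TMM-scaled CPM in aged untreated and 25.1, 26.3 and 21.9 in aged caerulein mice, without overlap. It fell by 0.42 on the log2 scale (SE 0.15, edgeR, adjusted p = 0.044), whereas the estimate on library totals was 0.20 (adjusted p = 0.312), so its sign flips with the scaling. In young mice the groups overlapped at 27, 23.1 and 32.7 untreated and 25.5, 29 and 30.4 after caerulein. Relative to the family it was lower at both ages, by -0.29 (adjusted p = 0.0333) and -0.55 (adjusted p = 0.00233).

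**Figure D3:**
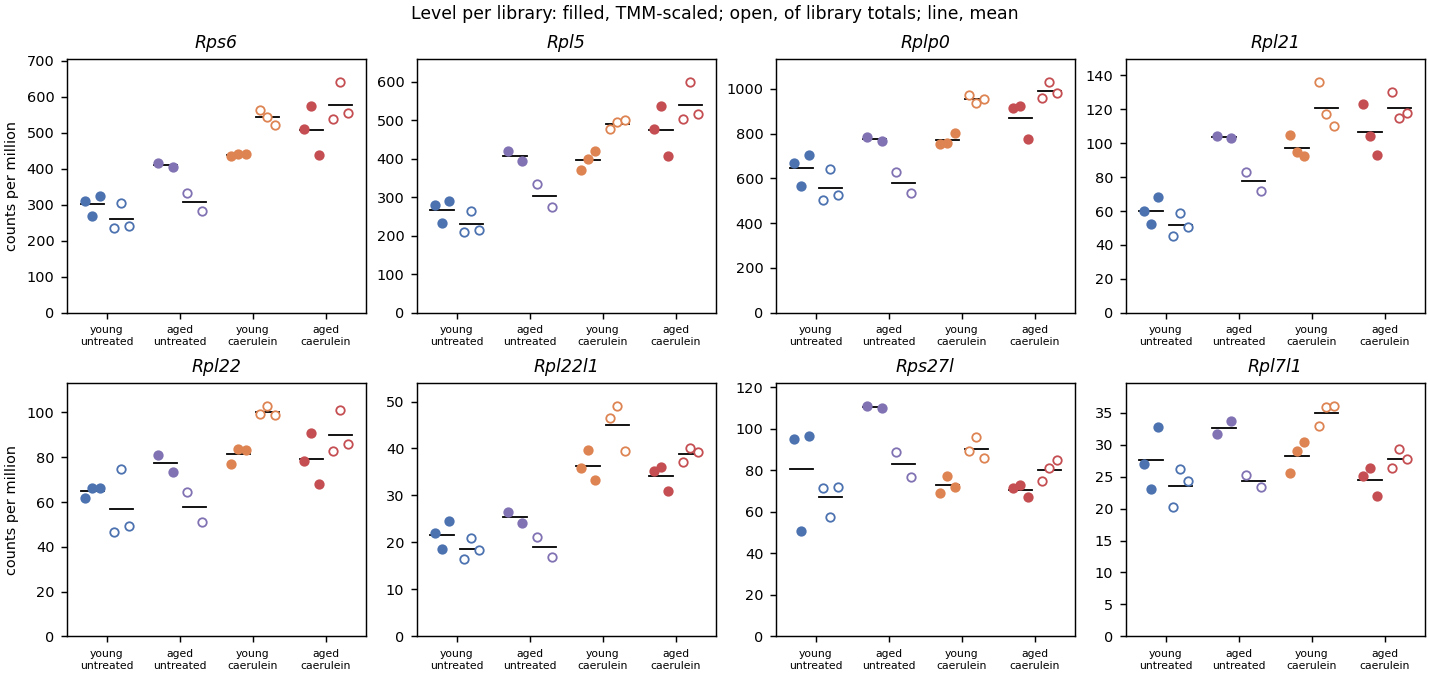
CPM of 8 members in each library, TMM-scaled (filled) and of library totals (open), with the group mean as a line. Rps6, Rpl5 and Rpl22l1 are higher after caerulein in young mice on both scales, while Rps27l in aged mice is lower on the TMM scale and overlaps on library totals.

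Rps27rt is a retrotransposed copy of Rps27, and the longest run shared by their transcripts was 341 bases of 345 and 374. Rps27rt was at 21.4 and 72.8 TMM-scaled CPM in aged untreated and 14.7, 22.7 and 18.8 in aged caerulein mice, and the groups overlapped although the call passed (-1.34 ± 0.51, edgeR, adjusted p = 0.0496). In aged untreated mouse 3, Rps27rt held 67.8% of the counts of the pair, against 9.87% to 37.4% in the other libraries, and Rps27 was at 34.6 CPM there against 81.3 to 117 elsewhere. The summed pair was at 109, 139 and 119 CPM in young untreated, 127 and 107 in aged untreated, 136, 136 and 116 in young caerulein and 126, 140 and 102 in aged caerulein mice. All groups of the pair overlapped. The sum changed by 0.08 ± 0.15 in young mice (adjusted p = 0.668) and 0.06 ± 0.17 in aged mice (adjusted p = 0.783), in a fit chosen after the values were seen.

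**Figure D4:**
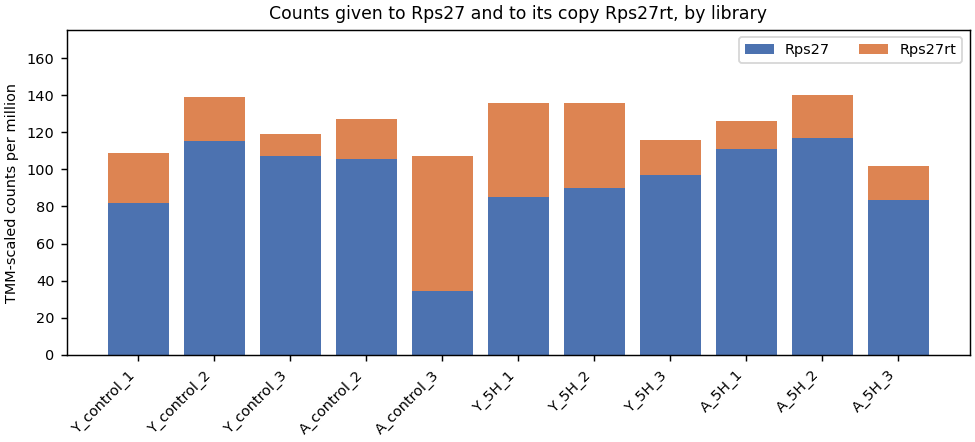
TMM-scaled CPM assigned to Rps27 (blue) and its copy Rps27rt (orange) in each library, stacked. The sum lies between 102 and 140, while the part assigned to Rps27rt runs from 9.87% to 67.8%.

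The other paralogues were expressed at low levels. Rpl36al had 1 to 46 counts a library, and its log2 changes had standard errors of 0.64 in young and 0.72 in aged mice. Rpl3l had at most 3 counts in a library. Rpl10l and Rpl39l had 0 counts in every library. Rps4l, annotated in the table as a pseudogene and so no member, was at 0.919 to 2.98 TMM-scaled CPM untreated and 3.57 to 7.49 after caerulein, without overlap. Reads that fit both a gene and a close copy may have been divided between them or left out, and how they were treated is not given in the sources used here.

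Scaling to the summed counts of the family shows change relative to it. In young mice 4 rose, Rpl22l1, Rpl21 and Rpl12 among them (18.7% of all genes), and 6 fell (Rpl38, Rpl39, Rpl7l1, Rps2, Rps21 and Rps27l; 35.6% of all genes), and 71 did not pass. In aged mice none rose by edgeR (22.7% of all genes), with 3 higher at an unadjusted p below 0.05, and 3 fell (Rpl7l1, Rps27l and Rps27rt; 23.4% of all genes). Without young untreated mouse 2, 5 rose (24.3% of all genes) and 6 fell (32.2%) in young mice. In aged mice 3 rose (28% of all genes) and 3 fell (28.1%) without it.

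The members' changes were also set out by the tract at the start. In young mice the median log2 change was 0.45 for the 14 tested members with a C and at least 4 pyrimidines on a start base. It was 0.36 for the 42 with a tract near a start, which include those 14. For the 19 with a listed promoter and no tract it was 0.29, and for the 20 with no listed promoter 0.39. In the same order 6, 20, 9 and 10 members rose on the TMM scale, where 27.5% of all genes rose. In aged mice the medians were 0.16, 0.15, 0.14 and 0.20. Of the paralogues printed above, Rps27 and Rps27rt have a tract on the start base, Rpl22l1 has one near its start, Rps27l has one near the first of its listed starts, and Rpl22 and Rpl7l1 have none. These are descriptions and no test was made.

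Aged and young untreated mice were compared next. No member passed the edgeR test in either direction, where 0.0567% of all genes were higher and 0.0354% lower in aged mice. DESeq2 called 2 higher (0.255% of all genes). At an unadjusted p below 0.05, 31 members were higher and none lower. The share of all genes at that cutoff is not given here, so the 31 has no background beside it. On the TMM scale 79 of 81 estimates were positive with a median of 0.29, against -0.03 over all genes. On that scale both aged libraries lay above all young ones in 62 members (12.4% of all genes) and below in 0 (10.8%). With library totals they lay above in 4 members and below in 0, and 77 overlapped. The share of all genes without overlap on library totals is not given here. On library totals the median was 0.07, against -0.27 over all genes, and 2 members were higher at an unadjusted p below 0.05. Without young untreated mouse 2 these became 0.24, 0.00 and 23. The member of smallest p was Rpl21, at 0.79 ± 0.15 (adjusted p = 0.161), which passed without young untreated mouse 2 (0.68 ± 0.13, adjusted p = 0.0452) and was 0.60 ± 0.15 with its pseudogene rows added (adjusted p = 0.306). Rpl5 (0.60 ± 0.15, adjusted p = 0.345) and Rpl36a (0.56 ± 0.16, adjusted p = 0.506) followed. The negative estimates were Rps27 (-0.54 ± 0.36) and Rpl36al (-0.14 ± 0.72). The authors' deposited table called 2 members higher (share of all genes in that table not given here), and there Rpl21 had a log2 change of 0.78 with an adjusted p of 0.00931.

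Between aged and young mice after caerulein no member passed the edgeR test, where 2.46% of all genes were higher and 1.27% lower in aged mice; 1 member was higher and 1 lower at an unadjusted p below 0.05, and DESeq2 called none. The median was 0.10 (0.01 over all genes) with 70 of 81 positive on the TMM scale, and -0.02 with 35 positive on library totals. Without aged caerulein mouse 2 the TMM median was 0.03 with 51 positive, and without aged caerulein mouse 3 it was 0.18 with 9 members higher at an unadjusted p below 0.05. The medians of all genes in these fits were 0.02 and 0.01, and no share of all genes at the unadjusted cutoff is given here. The libraries did not overlap in 3 members with aged above (17.3% of all genes) and in 0 with aged below (13.6%). Whether or not their groups overlapped, the members of smallest p were Rpl36al (1.40 ± 0.64), Rpl5 (0.26 ± 0.14) and Rpl17 (0.31 ± 0.18) upward, and Rps27rt (-1.05 ± 0.47), Rpl7l1 (-0.21 ± 0.14) and Rpl22l1 (-0.09 ± 0.13) downward.

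The difference between the ages in their response to caerulein was tested directly. No member passed, as 0.00709% of all genes did in each direction; 2 members were lower and none higher at an unadjusted p below 0.05, and DESeq2 called none. The median difference, aged response minus young response, was -0.19 against 0.06 over all genes, with 4 of 81 positive, and -0.11 on library totals against 0.18. Without young untreated mouse 2 the library-total medians were -0.27 and -0.10, so the median of all genes moved down as well. In that fit 13 members were lower at an unadjusted p below 0.05, where 3 were with that mouse. No share of all genes at this cutoff is given here. The TMM median was -0.10 without aged caerulein mouse 3 and -0.28 without aged caerulein mouse 2. The smallest p values belonged to Rps27rt (-2.23 ± 0.69, adjusted p = 0.239), Rpl21 (-0.66 ± 0.21, adjusted p = 0.239) and Rpl7l1 (-0.45 ± 0.21, adjusted p = 0.404). With pseudogene rows added Rpl21 was at -0.49 ± 0.20 (adjusted p = 0.354). In the positive direction they were Rpl36al (1.54 ± 0.96), Rps27 (0.73 ± 0.48) and Rpl30 (0.11 ± 0.39). No member was therefore shown to differ between the ages in its response, although more were called in young mice. The numbers of calls were not themselves compared, and they rest on 2 aged untreated libraries against 3 young untreated ones.

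Initiation and elongation factors, other 5′-TOP genes and ribosome assembly factors had larger median changes than the ribosomal proteins on the TMM scale. The difference was not tested. Counts in the lists below stand beside 27.5% of all genes that rose and 24.7% that fell in young mice, and 27.0% and 21.2% in aged mice. Of 31 further initiation and elongation factors, 25 rose and 1 fell in young mice (median 1.03), and 24 rose and 1 fell in aged mice (median 1.02). Eif1a, which scans for the start codon, rose by 2.54 ± 0.13 and 2.93 ± 0.16, and Eif5, which triggers GTP hydrolysis at the start codon, by 2.06 ± 0.14 and 2.24 ± 0.16. Of 20 other genes with a known 5′-TOP tract, 15 rose in young (median 0.54) and 10 in aged mice (median 0.40), and none fell. Among them Eif3e, a subunit of initiation factor 3, rose by 1.19 ± 0.12 and 1.04 ± 0.14, and the nucleolar chaperone Npm1 by 1.05 ± 0.13 and 1.07 ± 0.15.

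Of 20 chaperones and assembly factors of ribosomes, 13 rose and 5 fell in young mice (median 0.87), and 13 rose and 2 fell in aged mice (median 1.08). Sbds, which releases Eif6 from the large subunit, rose by 2.68 ± 0.14 and 2.49 ± 0.16, and Grwd1, a chaperone of Rpl3, by 2.62 ± 0.17 and 2.10 ± 0.20. Of 20 tested regulators of 5′-TOP mRNAs and mTOR, 9 rose and 4 fell in young and 10 rose and 5 fell in aged mice. Sesn2 and Ddit4, inhibitors of mTOR complex 1 induced by stress, rose by 3.71 ± 0.26 and 2.41 ± 0.25 in young mice and by 3.49 ± 0.31 and 3.59 ± 0.31 in aged mice, and Rheb, its activator, by 2.27 ± 0.15 and 2.08 ± 0.17. Of 13 quality control factors, 7 rose and 4 fell in young mice and 6 rose and 4 fell in aged mice.

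For mitochondrial ribosomal protein genes the balance of rises and falls changed with the scaling. Of 77 tested, 13 rose and 24 fell in young mice (median -0.15), and 7 rose and 31 fell in aged mice (median -0.28), where 27.5% of all genes rose and 24.7% fell in young and 27.0% and 21.2% in aged mice. On library totals 30 rose and 4 fell in young mice (37.7% and 8.99% of all genes), and 27 rose and 7 fell in aged mice (38.6% and 7.61%). Mrpl18 fell by 1.74 on the log2 scale in young mice (SE 0.22) and Mrps18b rose by 1.45 ± 0.21. Rack1 and Fau encode ribosomal proteins under other names. In young mice Rack1 rose by 0.50 ± 0.12 (edgeR, adjusted p = 0.00506) and Fau by 0.44 ± 0.14 (adjusted p = 0.0262). In aged mice neither passed (0.34 ± 0.14, adjusted p = 0.0587, and 0.27 ± 0.16, adjusted p = 0.195). No gene of any of these lists passed in either age comparison or in the difference of responses.

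**Figure D5:**
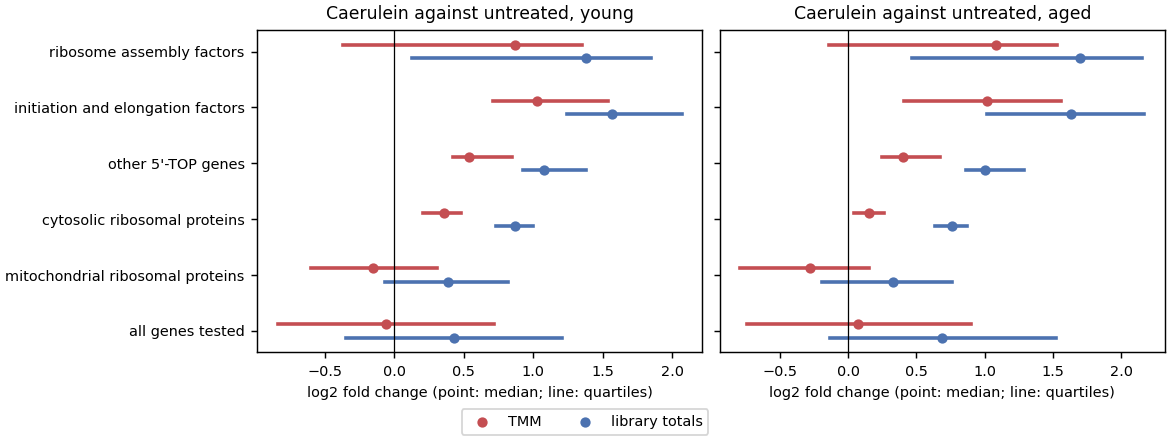
Median (point) and quartiles (line) of log2 fold changes after caerulein for 5 gene lists and all tested genes, in young and aged mice, on the TMM scale (red) and on library totals (blue). The TMM median of cytosolic ribosomal proteins is 0.36 in young and 0.15 in aged mice, that of initiation and elongation factors 1.03 and 1.02.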

How the data were processed

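Poly(A) RNA of 11 mouse pancreas samples was sequenced with paired reads of 150 bases, per the labels' protocols. Raw counts per gene were deposited by the authors, and the submitters' processing notes name HISAT2 2.0.5, featureCounts 1.5.0-p3 and build mm10. Strand setting, annotation release and comparison software were not given in the sources used here. FPKM values are the authors' own and were used only to order levels between genes. The log2 fold changes and adjusted p-values of the authors' deposited tables are credited where printed.

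Counts were tested with edgeR 4.0.16 (R 4.3.3, quasi-likelihood) with TMM scaling, in 1 model of 4 group means over all libraries, after its filter on low expression. Adjusted p-values are Benjamini-Hochberg over 14113 genes and a call is an adjusted p below 0.05. Counts at an unadjusted p below 0.05 are given for members only, with no share of all genes beside them. SE was taken from the log2 change and its F statistic. DESeq2 1.42.0 was an alternative. The fit was tested on simulated data, and the pass criterion was loosened once, after 2-fold changes were recovered less often than first required.

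The members and gene lists were chosen with earlier results of these data known, and the promoter searches and the way changes of sign are counted were settled after results were seen. Named genes are the stalk, 5S and paralogue genes, Rps6, Rpsa and Rps27a, the 3 of smallest p in each direction per comparison, the highest and lowest by FPKM, and calls against the median; for the other lists, up to 4 of smallest p. Some genes this rule names are not reported here. Same-numbered mice of different groups are different animals. Correlations of the deviations of same-numbered libraries from their group means were 0.106, 0.149 and 0.114 between young untreated and young caerulein mice, so a fit with the mouse number as a block is given where it changes a call there; other groups had no such pattern in every pair. P-values measure the spread between these mice. Promoters are from RefSeq GRCm38.p6, read with Python 3.11.15 and pandas 2.3.3, with figures drawn in matplotlib 3.10.9.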

Additional observations from a re-analysis of the deposited data

How the results depend on the processing

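Scaling moved the counts most. Members higher after caerulein in young mice numbered 39 with TMM (27.5% of all genes) and 77 on library totals (37.7%). They numbered 61 on totals without the acinar list (28.7%) and 4 on the summed ribosomal protein counts (18.7%). On that last scale 6 were lower (35.6%). Without young untreated mouse 2, 79 were higher on totals (52.9%) and 5 on the family sum (24.3%), with 6 lower on the latter (32.2%). These fits were added after the data were seen. In aged mice, 3 higher became 73 on totals, 30 without the acinar list and 0 on the family sum (27.0%, 38.6%, 28.9% and 22.7% of all genes higher). On totals without young untreated mouse 2, 76 were higher (48.9%). The 3 lower with TMM (21.2% of all genes lower) became 0 on totals (7.61%) and 1 without the acinar list (15.3%). They became 0 on totals without that mouse (10.5%). Leaving out 1 library gave 26 to 44 higher and 0 to 1 lower in young mice, 0 to 9 higher and 0 to 3 lower in aged mice, and 0 to 1 higher for age in untreated mice. In those fits 24.4% to 30.8% of all genes were higher and 19.2% to 26.8% lower in young mice. The ranges were 18.9% to 30.7% and 12.6% to 27.6% in aged mice, and 0.0128% to 0.258% higher for age in untreated mice. For age in untreated mice, 2 members were higher with no filter (0.266% of all genes) and 2 with DESeq2 (0.255%). With no filter 1 was lower for age after caerulein (1.14% of all genes) and 1 for the difference of responses (0.47%). With only the groups compared 1 was lower for age after caerulein (5.75%). With the mouse number as replicate block, 27 rose in young mice (26.8% of all genes), and 1 rose (25.7%) and 1 fell (19.8%) in aged mice. Without young untreated mouse 2 the block gave 5 higher in aged (29.9% of all genes) and 2 lower in young mice (25.2%). The block changed 4 calls of named members in young mice, all lost, and they are given with those members. The cause of these shifts was not tested, beyond what each scaling changes by construction.

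Among named members, 20 estimates changed sign where one of the fits had called them. On library totals in young mice Rpl41 was 0.55 and Rps27l 0.43, and 0.53 and 0.33 without young untreated mouse 2. On the family sum in young mice Rpl22 was -0.02, Rpl39 -0.29 and Rpl7l1 -0.29, the last -0.34 without that mouse. On library totals in aged mice, with and without that mouse, Rpl3 was 0.57, Rpl36a 0.59, Rpl39 0.59, Rpl41 0.55, Rpl7l1 0.20 and Rplp1 0.58. A further 214 estimates changed sign with no call in either fit, 2698 kept sign and side of the threshold, 114 lost the call and 75 gained it. Counting uncalled changes of sign apart from called ones was decided after they were seen.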
